A study of Drosophila melanogaster with 18 samples.

Results

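Transcript levels of 4 cell cycle genes, CycB, CycD, Cdk2 and fzr, were followed in embryos staged by nuclear cycle around the blastoderm stage of Drosophila melanogaster. The genes were taken by symbol, as every probe set to which the array annotation assigns 1 of these symbols alone. Each gene had 1 such probe set, so 4 of the 11982 genes with a probe set of their own are described. The rule uses no measured value, but the 4 genes were chosen with earlier results of these data known. Haploid embryos came from parents labelled maternal haploid and histone H2-GFP, and were collected in cycle 14, in early cycle 15 and in late cycle 15. Diploid embryos, labelled wild-type, came from parents labelled w and histone H2-GFP, and were collected in cycle 13, in early cycle 14 and in late cycle 14. The cycle 14, cycle 13, early cycle 15 and early cycle 14 groups were each taken 15 min into that cycle, counted from telophase of the division before, and the late groups 40 min into it. Each of the 6 groups held 3 biological replicates of about 50 pooled, hand-picked embryos.

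Every group carried the histone GFP marker, by which the divisions were watched, and the promoter that drives it is not given in the sources used here. The mothers of the 2 ploidies differed in genotype, so an effect of ploidy and one of the mother's genotype cannot be told apart. Whole embryos were extracted, so fewer transcripts per nucleus and fewer nuclei with the transcript cannot be told apart either. The design pairs each haploid group with the diploid group of the preceding cycle, at which the amount of DNA relative to cytoplasm, the nuclear to cytoplasmic ratio, is the same. The question is whether a transcript level goes with that ratio or with cycle number and time.

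The syncytial embryo divides in rapid alternation of DNA synthesis and mitosis, without gap phases, on RNA and protein that the mother loaded into the egg. Cyclins bind and activate cyclin-dependent kinases, and the anaphase-promoting complex (APC/C), a ubiquitin ligase, marks the mitotic cyclins for destruction so that nuclei can leave mitosis. Around the blastoderm stage the maternal RNAs are cleared, the zygotic genome becomes active and the cycle slows. CycB encodes cyclin B, the mitotic partner of Cdk1. CycD encodes cyclin D, which works with Cdk4 in growth and progress through G1. Cdk2 is the kinase that, with cyclin E, drives DNA synthesis. The fzr gene (fizzy-related, the fly Cdh1) encodes the APC/C activator that keeps mitotic cyclins low in G1 and in endocycles.

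The probe set of CycB reads a gene on chromosome arm 2R, those of CycD and fzr read genes on X, and that of Cdk2 a gene on 3R, by the RefSeq gene table of assembly Release 6. RefSeq lists 4 transcripts for CycB, 3 for CycD, 3 for Cdk2 and 2 for fzr, and 1 probe set per gene cannot separate them. Values are array intensities after quantile normalisation, which gives all 18 arrays the same distribution. An intensity of 31.9 served as the background, set at the 95th percentile over the 20 negative controls of the array, and all 4 genes lay above it on all 18 arrays. Differences are on the log2 scale from one limma fit over all arrays, with standard errors, and a difference was called where the p adjusted over 14560 tested probe sets was under 0.05. The scalings tried beside quantile normalisation were the deposited scale and centring of each array on its median, on ribosomal protein (RP) probe sets or on poly-A spike controls. Intensities of different probe sets are not per length, so no gene's level is set against another's.

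The arrays were not equally bright as deposited, with 2%-trimmed means from 145.5 to 279.1. All 8 markers of the cellularizing blastoderm were above background in every group, and at most 2 of 10 markers of the mother's tissues were in any group. Of 4 measured markers of later embryos, at most 1, the neuronal gene elav, was above background in any group. Their summed level was 46.5 to 69.4, 165 to 208 and 779 to 876 in haploid cycle 14, early and late cycle 15, and 27.5 to 45.2, 49.4 to 79.4 and 277 to 289 in diploid cycle 13, early and late cycle 14. The 4 measured pole cell markers were above background everywhere, and their summed level was 3221 to 4175, 1478 to 1820 and 835.3 to 870.5 in haploid cycle 14, early and late cycle 15, and 9877 to 10625, 3530 to 4428 and 1305 to 1417 in diploid cycle 13, early and late cycle 14. Of these 4, nanos, gcl and osk carried the sum, while vas averaged 93.8, 112 and 76.4 in the haploid and 47.8, 70.2 and 78.2 in the diploid stages. The RNA came from whole embryos, so this sum cannot be read as an amount of pole cells. The blastoderm sum was lowest in diploid cycle 13, at 6269 to 7492, and 9812 or more elsewhere. Of the arrays' own control probe sets, the one for the 3' end of GAPDH averaged 965.2 in diploid cycle 13 and at most 151.6 in the other groups, and the 18S ribosomal RNA control (middle part) stood at a mean of 986.6 in late haploids and at most 395.7 elsewhere. These levels move with the stages compared below, and their part in the results was not tested.

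CycB transcripts fell over every step in both ploidies, except that the small diploid first step turned sign on the deposited scale, and were lower in haploids than in diploids at each matched ratio. In haploid embryos the 3 arrays read 8314, 8109 and 8930 in cycle 14, 5718, 4956 and 5777 in early cycle 15, and 3697, 3599 and 3322 in late cycle 15. In diploid embryos they read 11376, 11139 and 11449 in cycle 13, 9735, 9759 and 9611 in early cycle 14, and 4998, 4746 and 5124 in late cycle 14. No 2 stages of one ploidy overlapped, and of neighbours in the order of the 6 levels only haploid early cycle 15 and diploid late cycle 14 did. CycB was among the brightest probe sets of the array, at a mean percentile of 98.4 in haploid late cycle 15, its lowest group, and 99.9 in diploid cycle 13, its highest. This is a rank of probe set intensity and does not rank the amounts of transcripts.

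**Figure D1:**
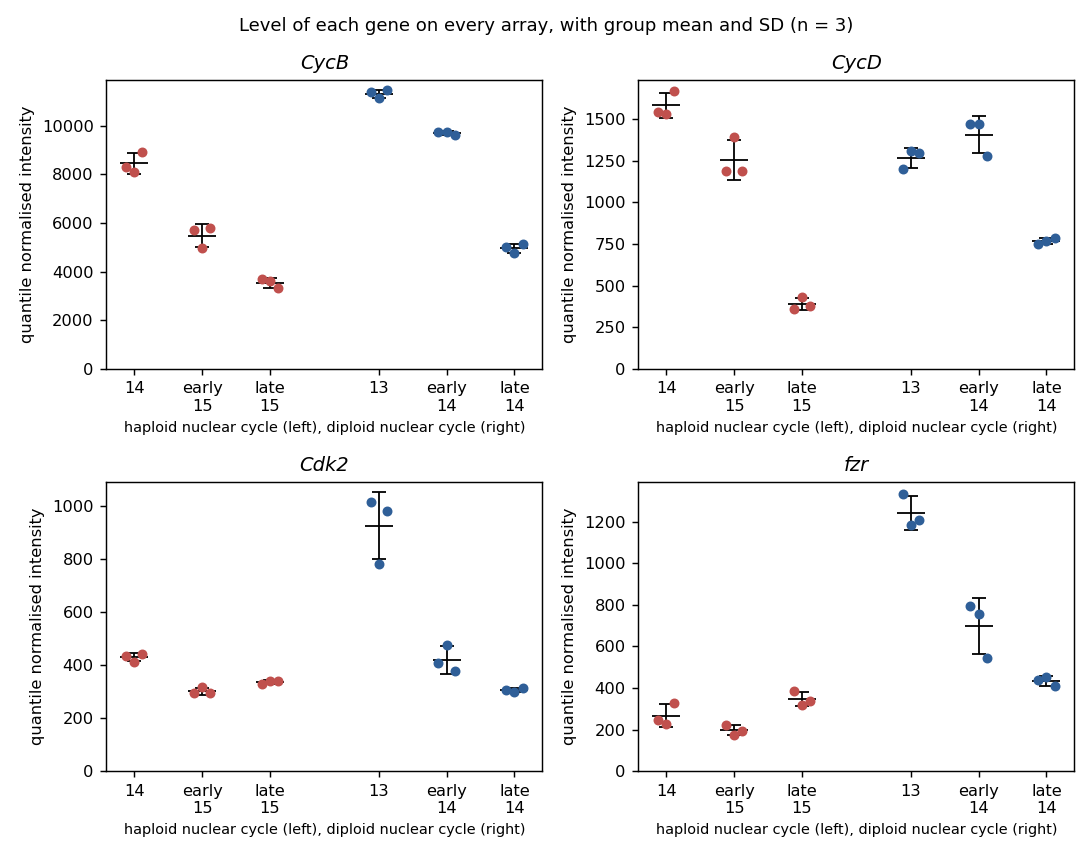
Quantile normalised intensity (linear axis from 0) of CycB, CycD, Cdk2 and fzr on each array, with haploid stages (red) left of diploid stages (blue) and the group mean with its SD over 3 arrays in black. CycB declines stage by stage in both ploidies (on the deposited scale not over the diploid first step), CycD drops at the last stage, Cdk2 is highest in diploid cycle 13, and every haploid array of fzr lies below every diploid one.

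The haploid first step, from cycle 14 into early cycle 15, lowered CycB by a log2 difference of -0.63 ± 0.06 (SE, limma adjusted p = 3.0e-08), a call that did not hold on the deposited scale (-0.26) or with poly-A centring (-0.06). The diploid first step, from cycle 13 into early cycle 14, gave -0.22 ± 0.06 (adjusted p = 0.00609), a call that did not hold under any other scaling, and on the deposited scale the sign turned, to 0.05. On that scale the diploid arrays read 11063 to 11359 in early cycle 14, against 10498 to 11506 in cycle 13. The second step, from 15 to 40 min of the last cycle, was a fall of -0.63 ± 0.06 in haploids (adjusted p = 8.2e-09) and of -0.97 ± 0.06 in diploids (adjusted p = 7.0e-12), and both calls held under all 4 other scalings. As a share of the diploid cycle 13 mean, CycB stood at 31.2% in haploid late cycle 15 and at 43.8% in diploid late cycle 14.

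Set against diploids at the same ratio, CycB differed by log2 -0.42 ± 0.06 in haploid cycle 14 against diploid cycle 13 (adjusted p = 3.4e-06, 0.0724 with median centring), by -0.83 ± 0.06 in haploid early cycle 15 against diploid early cycle 14 (adjusted p = 2.9e-10), and by -0.49 ± 0.06 in haploid late cycle 15 against diploid late cycle 14 (adjusted p = 1.1e-06). At the same cycle and minutes, haploid cycle 14 against diploid early cycle 14 gave -0.20 ± 0.06 after quantile normalisation (adjusted p = 0.0183). That call was lost without haploid cycle 14 replicate 1 (adjusted p = 0.0603) or replicate 2 (0.0877), without diploid early cycle 14 replicate 2 (0.0597), and with median centring (-0.06, adjusted p = 0.828). The call held with RP centring (-0.27), and also on the deposited scale (-0.74) and with poly-A centring (-0.68), where the difference was larger. The size of this difference thus depended on the scaling. Haploid early cycle 15 against diploid late cycle 14 gave 0.14, with a 95% interval of 0.02 to 0.27, which did not pass (adjusted p = 0.116), but passed without haploid early cycle 15 replicate 2, at 0.21 (adjusted p = 0.0115), and with poly-A centring, at 0.58 (adjusted p = 0.0408). The steps themselves differed between ploidies, the first being steeper in haploids (haploid minus diploid step -0.40 ± 0.08, adjusted p = 0.00293) and the second less steep (0.34 ± 0.08, adjusted p = 0.00678). Under poly-A centring the first of these turned to 0.08. The first call held only with median centring among the other scalings, and the second only with RP centring.

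CycD fell most between 15 and 40 min of the last cycle sampled, more deeply in haploids. In haploid embryos it read 1543, 1530 and 1669 in cycle 14, 1188, 1395 and 1186 in early cycle 15, and 359.8, 432.6 and 375.0 in late cycle 15. In diploid embryos it read 1199, 1305 and 1297 in cycle 13, 1471, 1471 and 1276 in early cycle 14, and 747.6, 767.7 and 787.2 in late cycle 14. The late groups stood below every other array of their ploidy, while diploid early cycle 14, diploid cycle 13 and haploid early cycle 15 overlapped as neighbours in the order of levels.

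The second step lowered CycD by -1.69 ± 0.08 in haploids (adjusted p = 1.3e-13), a 3.23-fold fall, and by -0.87 ± 0.08 in diploids (adjusted p = 1.1e-08), a 1.83-fold fall. The haploid step was the steeper by -0.82 ± 0.12 (adjusted p = 2.6e-05), and all these calls and directions held under each of the 4 other scalings. The first step was a fall of -0.34 ± 0.08 in haploids (adjusted p = 0.00438), but this call held only with median centring among the other scalings, and with poly-A centring the sign turned, to 0.20. In diploids the first step gave 0.15, with a 95% interval of -0.02 to 0.32 (adjusted p = 0.226, 0.0342 on the deposited scale, where it was 0.40). The first steps differed by -0.48 ± 0.12 (adjusted p = 0.00968), a call that held with median centring and with none of the other 3 scalings.

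At the same ratio, haploid late cycle 15 embryos had 389.1 ± 38.4 units of CycD, against 767.5 ± 19.8 in diploid late cycle 14 embryos (SD, n = 3 each, log2 -0.98 ± 0.08, adjusted p = 3.0e-09). Haploid early cycle 15 against diploid late cycle 14 went the other way, at 0.71 ± 0.08 (adjusted p = 9.2e-07), and both calls held under every scaling tried. Haploid cycle 14 stood 0.32 ± 0.08 above diploid cycle 13 (adjusted p = 0.00341), but no other scaling kept the call, and the sign turned on the deposited scale (-0.10) and with poly-A centring (-0.22). Haploid cycle 14 against diploid early cycle 14 gave 0.17, with an interval of -0.00 to 0.34 (adjusted p = 0.172). It turned to -0.50 on the deposited scale, where it was called (adjusted p = 0.00403). With poly-A centring it was -0.44 (adjusted p = 0.059) and with RP centring -0.03. Haploid early cycle 15 against diploid early cycle 14 gave -0.16, with an interval of -0.34 to 0.01 (adjusted p = 0.173), and passed without haploid early cycle 15 replicate 2, at -0.24 (adjusted p = 0.0451), and with the deposited scale or RP centring.

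**Figure D2:**
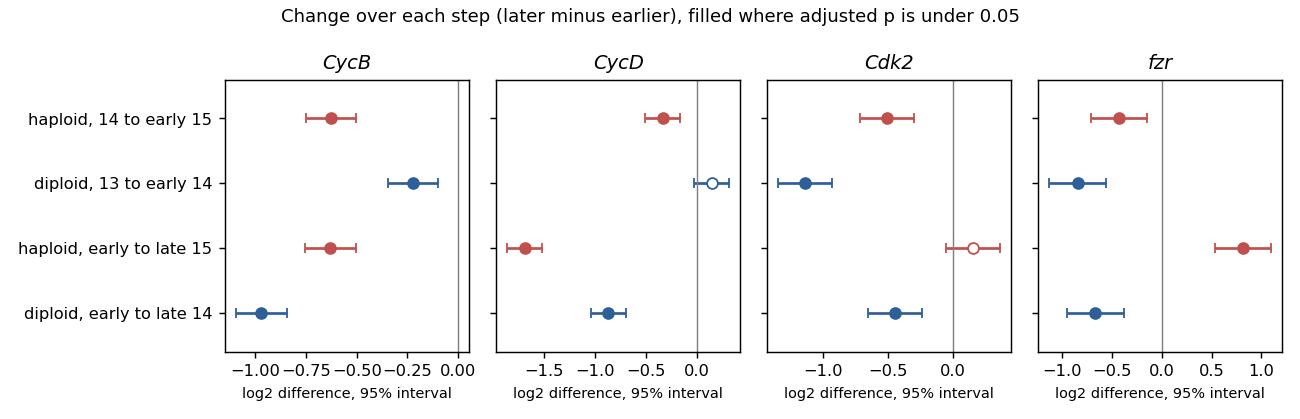
Fitted log2 difference of the later minus the earlier stage (horizontal axis) with its 95% interval for each gene, haploid steps in red above the matching diploid steps in blue, and filled circles where the adjusted p was under 0.05. The second step of fzr lies at 0.82 in haploids and at -0.67 in diploids, and that of CycD is at -1.69 in haploids and at -0.87 in diploids.

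Cdk2 was at its highest in diploid cycle 13, and stood at 46.7% of that level in haploid cycle 14 and at 45.4% in diploid early cycle 14. Its haploid arrays read 436.1, 413.2 and 442.9 in cycle 14, 293.8, 317.4 and 294.4 in early cycle 15, and 329.0, 339.3 and 340.4 in late cycle 15. Its diploid arrays read 1018, 784.1 and 981.6 in cycle 13, 407.2, 477.6 and 376.5 in early cycle 14, and 308.2, 298.9 and 313.4 in late cycle 14. All diploid cycle 13 arrays lay above all others, and haploid cycle 14 overlapped diploid early cycle 14, as haploid early cycle 15 did diploid late cycle 14. On the deposited scale haploid cycle 14 and diploid early cycle 14 did not overlap, at 289.1 to 397.1 and 502.4 to 704.7.

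The diploid first step was a fall of -1.14 ± 0.10 (2.20-fold, adjusted p = 4.5e-09) and the diploid second step one of -0.45 ± 0.10 (adjusted p = 0.00123), both called under all scalings. In haploids the first step was a fall of -0.51 ± 0.10 (adjusted p = 4.7e-04), not called on the deposited scale (adjusted p = 0.0559) or with poly-A centring (0.446). The haploid second step gave 0.16, with an interval of -0.05 to 0.36 (adjusted p = 0.294), and with poly-A centring it turned to -0.57 (adjusted p = 0.0194). The steps differed between ploidies by 0.63 ± 0.14 for the first (adjusted p = 0.00554) and 0.60 ± 0.14 for the second (adjusted p = 0.00435). The first of these calls held under none of the other scalings, which gave 0.17 to 0.79, and the second held under all but poly-A centring.

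At the same ratio, Cdk2 was lower by -1.10 ± 0.10 in haploid cycle 14 than in diploid cycle 13 (adjusted p = 4.8e-09) and by -0.47 ± 0.10 in haploid early cycle 15 than in diploid early cycle 14 (adjusted p = 8.4e-04), under every scaling. Haploid late cycle 15 against diploid late cycle 14 gave 0.13, with an interval of -0.08 to 0.34 (adjusted p = 0.449), and its sign turned under each other scaling, down to -0.28. Haploid cycle 14 and diploid early cycle 14, of the same cycle and minutes, differed by 0.04, with an interval of -0.17 to 0.25 (adjusted p = 0.846). Here too each other scaling turned the sign. The lower haploid level was called on the deposited scale (-0.81, adjusted p = 0.00012) and with poly-A centring (-0.74, adjusted p = 0.00316). Leaving out diploid early cycle 14 replicate 3 turned the sign as well, to -0.03. Haploid early cycle 15 and diploid late cycle 14 differed by -0.02, with an interval of -0.23 to 0.18 (adjusted p = 0.92), and by 0.29 with poly-A centring.

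The APC/C activator fzr was the gene of the 4 with the widest span of group levels, 6.33-fold between diploid cycle 13 and haploid early cycle 15. In haploid embryos it read 247.1, 224.9 and 329.5 in cycle 14, 222.2, 175.5 and 192.9 in early cycle 15, and 384.7, 317.3 and 337.4 in late cycle 15. In diploid embryos it read 1333, 1183 and 1209 in cycle 13, 794.8, 755.2 and 545.8 in early cycle 14, and 440.1, 454.2 and 408.5 in late cycle 14. Every haploid array lay below every diploid array, and of neighbouring levels only haploid late cycle 15 and haploid cycle 14 overlapped. Replicates of fzr also varied most, with an SD of up to 20.6% of the mean, in haploid cycle 14, where replicate 3 was the highest.

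At the same ratio, haploid cycle 14 embryos had 267.2 ± 55.1 units of fzr, against 1242 ± 80.1 in diploid cycle 13 embryos (SD, n = 3 each), a 4.71-fold difference (log2 -2.23 ± 0.14, adjusted p = 5.2e-12). Haploid early cycle 15 against diploid early cycle 14 gave -1.82 ± 0.14, a 3.52-fold difference (adjusted p = 5.4e-10). At the same cycle and minutes, haploid cycle 14 against diploid early cycle 14 gave -1.39 ± 0.14 (adjusted p = 9.2e-08). Haploid early cycle 15 against diploid late cycle 14, which share neither cycle nor minutes, gave -1.15 ± 0.14 (adjusted p = 1.1e-06). These 4 differences kept their direction and call under every scaling and with any 1 array left out. Haploid late cycle 15 against diploid late cycle 14 gave -0.33, with an interval of -0.61 to -0.05, and did not pass (adjusted p = 0.0994), though it did on the deposited scale (adjusted p = 0.022) and with median (0.0467) or poly-A centring (0.0107). Positions were set on the diploid first step, from cycle 13 (position 0) to early cycle 14 (position 1), after quantile normalisation. Haploid cycle 14 lay at 2.64 for fzr and at 0.96 for Cdk2. For fzr it lay beyond diploid early cycle 14 under every scaling, but the diploid first step was not called on the deposited scale (adjusted p = 0.0693). For Cdk2 every other scaling put haploid cycle 14 below diploid early cycle 14, by -0.12 to -0.81, and so beyond position 1. The positions of CycD (2.16) and CycB (1.90) are also not firm, since the diploid first step they are set against was small. For CycD that step was 0.15 and not called (limma adjusted p = 0.226), and for CycB (-0.22) no other scaling kept the call. After quantile normalisation haploid cycle 14 against diploid early cycle 14 was not called for CycD either. Its sign turned with all but median centring, and on the deposited scale the lower haploid level was called (-0.50, adjusted p = 0.00403).

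Over the second step fzr moved in opposite directions, with a rise of 0.82 ± 0.14 in haploids (1.76-fold, adjusted p = 3.8e-05) and a fall of -0.67 ± 0.14 in diploids (adjusted p = 4.8e-04). The difference between these steps was 1.49 ± 0.19 (adjusted p = 7.9e-06) and was called under every scaling, from 1.49 to 1.95. The haploid rise was 0.21 with poly-A centring (adjusted p = 0.483) and was called under the other 3 scalings. Over the first step fzr fell by -0.85 ± 0.14 in diploids (adjusted p = 3.8e-05, 0.0693 on the deposited scale). The haploid first step was -0.43 ± 0.14 (adjusted p = 0.027), a call lost without haploid cycle 14 replicate 3 (log2 -0.27, adjusted p = 0.216), without haploid early cycle 15 replicate 2 (adjusted p = 0.12) or replicate 3 (0.0727), and under 2 of the other scalings. The difference between the first steps was 0.42 (interval 0.02 to 0.82) and did not pass (adjusted p = 0.212), except without haploid cycle 14 replicate 3 (0.58, adjusted p = 0.0494), and median centring turned the difference to -0.09.

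**Figure D3:**
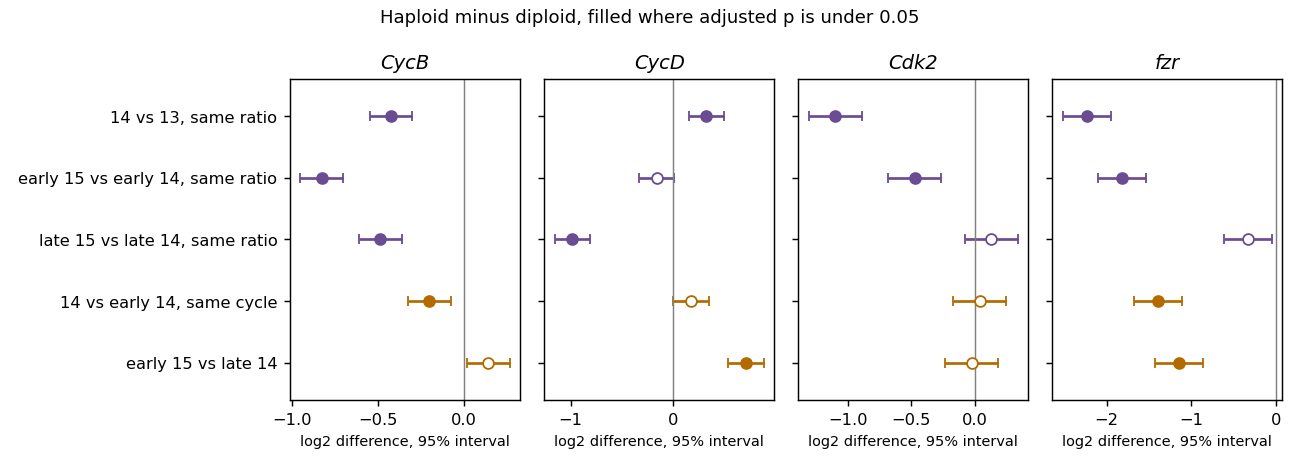
Fitted log2 difference of haploid minus diploid embryos (horizontal axis) with its 95% interval for each gene, at the same nuclear to cytoplasmic ratio (purple), and for haploid cycle 14 against diploid early cycle 14 and haploid early cycle 15 against diploid late cycle 14 (orange), filled where the adjusted p was under 0.05. The fzr values run from -2.23 to -0.33, while those of Cdk2 in the orange pairs are 0.04 and -0.02 and change sign with the scaling.

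Counted together, 4 of the 4 genes fell over the haploid first step, where 20.3% of the tested probe sets were called, 10.4% as higher and 9.87% as lower. This count was 4 with median and 3 with RP centring, but 0 on the deposited scale and with poly-A centring. Over the diploid first step 3 fell (27.3% called, 16.8% higher and 10.5% lower), against 1 or 2 under the other scalings. Over the second step 1 rose and 2 fell in haploids (28.9% called, 14.1% higher and 14.8% lower), and 4 fell in diploids (28% called, 14.7% higher and 13.3% lower). The single rise among these steps was that of fzr in haploids, and with poly-A centring 0 rose and 3 fell there. At the matched ratios, 1 was higher and 3 were lower in haploid cycle 14 than in diploid cycle 13 (35.7% called, 20.6% higher and 15% lower). In haploid early cycle 15 against diploid early cycle 14, 3 were lower (26.4% called, 14% higher and 12.3% lower). In haploid late cycle 15 against diploid late cycle 14, 2 were lower (21% called, 9.36% higher and 11.6% lower). Under the other scalings 0 were higher in all 3 of these comparisons, and 2 to 3, 3 to 4 and 2 to 3 were lower.

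At the same cycle and minutes, 2 were lower in haploid cycle 14 than in diploid early cycle 14 (20.5% called, 10.2% higher and 10.4% lower), against 1 to 4 under the other scalings. In haploid early cycle 15 against diploid late cycle 14, 1 was higher and 1 lower (17.3% called, 8.65% higher and 8.64% lower). In that pair, matched in neither cycle nor minutes, CycD was higher and fzr lower. The haploid minus diploid difference was above 0 for 1 gene and below 0 for 2 in the first step (8.96% called, 3.94% higher and 5.01% lower), and above 0 for 3 and below 0 for 1 in the second (14.5% called, 6.54% higher and 7.95% lower). Under the other scalings the first step had 0 above and 0 to 2 below, and the second 1 to 3 above and 1 below. Bright probe sets were called more often, and 5561 were above background on every array, as these 4 are. Among those, the shares called were 38.4% and 56.5% for the haploid and diploid first steps, and 53.7% and 53.6% for the second. They were 70.3%, 52.3% and 44.3% for the matched ratios from the earliest stage on, 43.4% and 31.7% for the other pairs of groups, and 18.9% and 30.8% for the differences between the first and the second steps.

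The balance of calls over the whole array depended on the scaling, which bears on every direction given. Calls were higher in 51.4% of cases for the haploid and 61.4% for the diploid first step, and other scalings gave 28% to 92.4% and 25.8% to 65.9%. For the second step it was 48.8% in haploids (12.1% to 52.9%) and 52.6% in diploids (12.3% to 25.4%). For haploid cycle 14 against diploid cycle 13 it was 57.9% (4.07% to 34.5%), for haploid early cycle 15 against diploid early cycle 14 53.3% (6.47% to 14.1%), and for haploid late cycle 15 against diploid late cycle 14 44.6% (9.59% to 37.2%). For haploid cycle 14 against diploid early cycle 14 it was 49.5% (1.01% to 22.2%), and for haploid early cycle 15 against diploid late cycle 14 50% (27% to 82.3%). For the differences between steps it was 44% (53% to 98.8%) and 45.1% (61.6% to 87.2%).

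Under the other scalings the median of all tested probe sets moved by -0.74 to 0.59, depending on the comparison. These scalings differ from one another only by a shift per array, so relative to the median of all tested probe sets they give a single value. On that relative scale the diploid first step of CycB was -0.32 after quantile normalisation and -0.24 under the others, and the haploid first step of CycD was -0.36 and -0.39. Haploid cycle 14 against diploid early cycle 14 was 0.02 and -0.06 for Cdk2, -0.23 and 0.00 for CycB, and 0.15 and 0.24 for CycD, while fzr stood at -1.41 and -1.52. Haploid late cycle 15 against diploid late cycle 14 gave 0.12 and -0.03 for Cdk2.

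**Figure D4:**
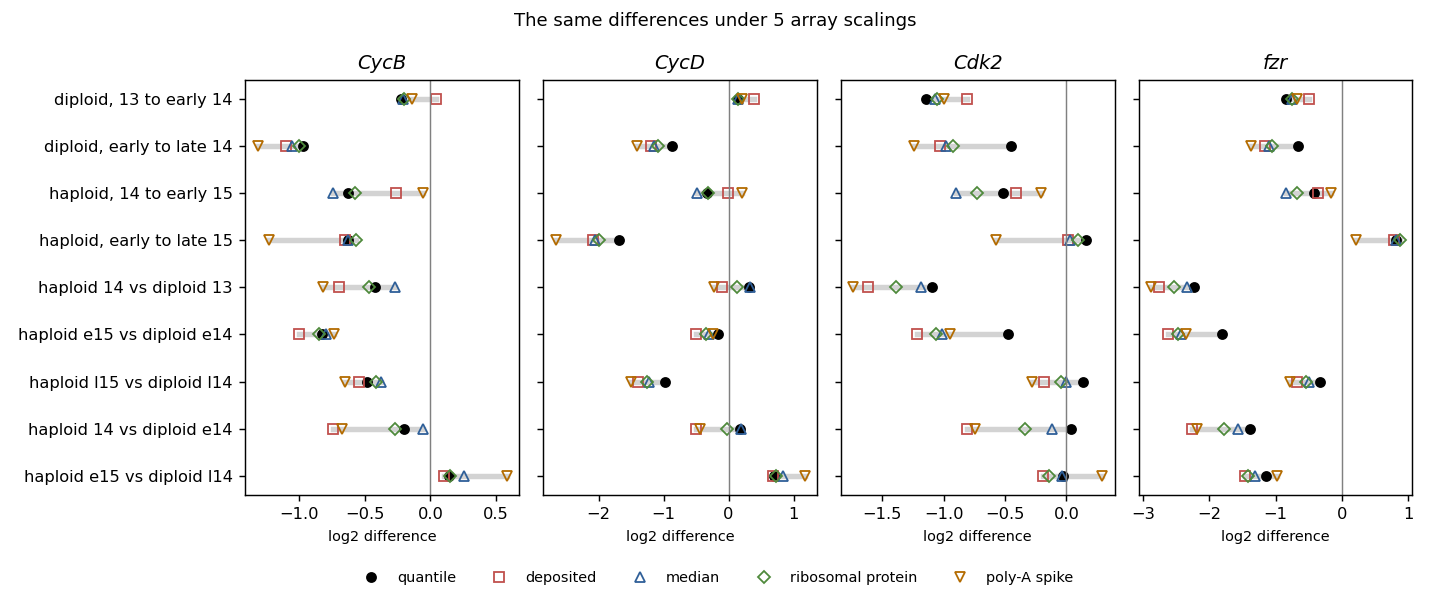
Log2 difference (horizontal axis) of each gene in 9 comparisons, later minus earlier and haploid minus diploid, after quantile normalisation (black) and under the 4 other scalings (open symbols), with grey bars over their range (e, early; l, late). Values of fzr between ploidies stay below 0 under all 5, while those of Cdk2 for haploid cycle 14 against diploid early cycle 14 run from 0.04 down to -0.81.

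The wider cell cycle machinery was read from a list of 64 further genes, of which 50 had a tested probe set of their own, each gene by its brightest. CycA, CycG, Cdk1, dap and stg were among the others and were not analysed here. Over the haploid first step 10 of the 50 rose and 11 fell, against 11.7% and 12.3% of all genes, and over the diploid first step 16 rose and 17 fell, against 19.8% and 13.1%. Over the second step 17 rose and 14 fell in haploids, against 16.6% and 17.8% of all genes, and 14 rose and 14 fell in diploids, against 17.4% and 16.2%. In haploid cycle 14 against diploid cycle 13, 20 were higher and 20 lower (24.2% and 18.2% of all genes), in haploid early cycle 15 against diploid early cycle 14, 13 and 14 (16.4% and 15%), and in haploid late cycle 15 against diploid late cycle 14, 15 and 12 (11.2% and 14.2%). At the same cycle and minutes, 12 were higher and 12 lower in haploid cycle 14 than in diploid early cycle 14 (12.4% and 12%). In haploid early cycle 15 against diploid late cycle 14, a pair matched in neither cycle nor minutes, 5 were higher and 14 lower (10.4% and 10.4%). The haploid first step exceeded the diploid one for 9 genes and lay below it for 5 (4.71% and 6.37%), and the second for 11 and 9 (8.01% and 9.79%). The list's median difference was 0.03 over the haploid first step, against 0.02 for all genes, and -0.04 over the diploid first step, against 0.10. Over the second step it was 0.18 in haploids, against -0.02, and -0.02 in diploids, against 0.03. Most of the 50 were above background on every array, and probe sets of that kind were called more often. Their share called was 38.4% and 56.5% for the haploid and diploid first steps and 53.7% and 53.6% for the second. It was 70.3% for haploid cycle 14 against diploid cycle 13. The counts for the list also depended on the scaling. Under the other scalings 5 to 24 rose and 5 to 16 fell in the haploid first step, 3 to 16 and 17 to 20 in the diploid first step, 5 to 15 and 11 to 21 in the haploid second step, and 4 to 6 and 22 to 25 in the diploid second step. Between ploidies, 0 to 10 were higher and 25 to 30 lower in haploid cycle 14 than in diploid cycle 13, 1 and 16 to 23 in haploid early cycle 15 than in diploid early cycle 14, and 0 to 9 and 11 in haploid late cycle 15 than in diploid late cycle 14. They were 1 to 3 and 15 to 41 for haploid cycle 14 against diploid early cycle 14, 4 to 11 and 3 to 14 for haploid early cycle 15 against diploid late cycle 14, 8 to 12 and 0 to 2 for the difference of first steps, and 6 to 18 and 1 to 3 for that of second steps.

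Of the other cyclins, CycE, the partner of Cdk2, had 2148 ± 386, 2242 ± 210 and 3535 ± 189 units in haploid cycle 14, early and late cycle 15, and 3270 ± 230, 2418 ± 94.0 and 3099 ± 264 in diploid cycle 13, early and late cycle 14 (SD, n = 3). It was lower in haploid cycle 14 than in diploid cycle 13 (log2 -0.62 ± 0.10, adjusted p = 1.2e-05) and rose over the haploid second step (0.66 ± 0.10, adjusted p = 6.3e-06). The diploid second step of CycE also lay above 0, at 0.36, a sign kept under 3 of the 4 other scalings, and its diploid first step was -0.43. The second mitotic B-type cyclin, CycB3, was lower in haploid cycle 14 than in diploid cycle 13 (-0.50 ± 0.10) and rose over the haploid first step (0.52 ± 0.10). Its second step gave 0.04 in haploids and -0.16 in diploids, neither called, where CycB fell in both. CycH, the partner of Cdk7, fell over the diploid first step (-1.53 ± 0.11). CycJ stayed below background on all arrays of 5 groups. Cdk4, the partner of cyclin D, fell over the haploid second step (-0.51 ± 0.08, adjusted p = 1.6e-05) but gave 0.19 in diploids, not called, with signs below 0 under the other scalings, and these steps differed by -0.71 ± 0.11 (adjusted p = 9.9e-05).

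Among the APC/C genes, fzy, the activator that works in mitosis, stayed between group means of 2025 and 2731. It was higher in haploid cycle 14 than in diploid cycle 13 (0.32 ± 0.06, adjusted p = 1.1e-04), a sign that turned under 2 of the other scalings, and its haploid second step of -0.17 ± 0.06 passed (adjusted p = 0.036). The meiotic activator cort was below background on all but 2 arrays of the 18. Rca1, an inhibitor of the APC/C, had 66.8 ± 13.8, 98.4 ± 9.58 and 173 ± 37.2 units in the 3 haploid stages and 153 ± 52.9, 62.2 ± 2.34 and 105 ± 10.8 in the 3 diploid stages. It rose over the second step in haploids (0.79 ± 0.23) and in diploids (0.75 ± 0.23). The ubiquitin-conjugating enzyme gene vih, which serves the APC/C, fell over the diploid first step (-1.47 ± 0.11) and rose over the haploid second step (1.08 ± 0.11). The steps of vih differed between ploidies by 1.11 ± 0.16 for the second (adjusted p = 2.2e-05). Of the 15 APC/C genes other than fzr, 0 rose and 5 fell over the haploid first step, against 11.7% and 12.3% of all genes, and 3 rose and 4 fell over the diploid first step, against 19.8% and 13.1%.

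Of the genes that changed at least 2-fold, the mitotic inhibitor Z600 and trbl, which directs the breakdown of the String phosphatase, rose over the first step in haploids (1.51 ± 0.09 and 1.66 ± 0.12) and in diploids (2.11 ± 0.09 and 1.95 ± 0.12), and the Greatwall kinase gene gwl fell (-1.63 ± 0.11 and -1.97 ± 0.11). The APC/C subunit gene APC7 fell over the first step in both (-1.31 ± 0.17 and -1.13 ± 0.17). The mediator kinase gene Cdk8, the DREAM complex gene mip120 and the centriole kinase gene SAK rose over the second step, by 1.42 ± 0.15, 1.85 ± 0.16 and 1.93 ± 0.19 in haploids and by 1.56 ± 0.15, 1.87 ± 0.16 and 1.93 ± 0.19 in diploids. The phosphatase gene twe fell further over the haploid than over the diploid second step (difference -1.02 ± 0.16, adjusted p = 5.2e-05). These directions held under all 4 other scalings.

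Other changes of at least 2-fold included falls of Cks30A, which binds Cdk1 (-1.18 ± 0.08), of endos, the substrate of Greatwall (-1.18 ± 0.11), and of lok, the fly Chk2 (-2.07 ± 0.10), over the diploid first step. Over the haploid second step CycT, the partner of Cdk9 (1.39 ± 0.15), rux, an inhibitor of cyclin A kinase (1.09 ± 0.25), and the repressor gene E2f2 (1.56 ± 0.13) rose, while the phosphatase subunit gene tws (-1.11 ± 0.13) and the APC/C subunit gene APC4 (-1.24 ± 0.11) fell. Over the diploid second step Rbf, the fly Rb protein gene (-1.16 ± 0.21), and grp, the fly Chk1 (-1.13 ± 0.08), fell. Between ploidies at the same ratio, 11 of the 50 genes were at least 2-fold lower, and 1 higher, in haploid cycle 14 than in diploid cycle 13. Among the 11 were vih (-2.06), endos (-1.61), lok (-1.60), mip120 (-1.54), APC7 (-1.46) and grp (-1.42 ± 0.08). In haploid early cycle 15, 3 were lower than in diploid early cycle 14, and 1 higher. The 3 were APC7 (-1.64), grp (-1.44 ± 0.08) and Rbf (-1.20). In haploid late cycle 15 only APC4 was lower by as much than in diploid late cycle 14 (-1.35 ± 0.11). The ATM kinase gene tefu was higher in haploid cycle 14 than in diploid early cycle 14 (1.36 ± 0.17) and in haploid early cycle 15 than in diploid late cycle 14 (1.75 ± 0.17). The directions of these 2-fold changes also held under all 4 other scalings. Over the same step the other ploidy gave smaller values of the same sign for lok (-0.82), CycT (0.91), rux (0.17) and E2f2 (0.72). The same was so for tws (-0.23), APC4 (-0.23), Rbf (-0.25) and grp (-0.69), while Cks30A gave 0.02 and endos -0.0003. Of these smaller values, the signs for rux, E2f2, Rbf, Cks30A and endos did not hold under every other scaling.

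**Figure D5:**
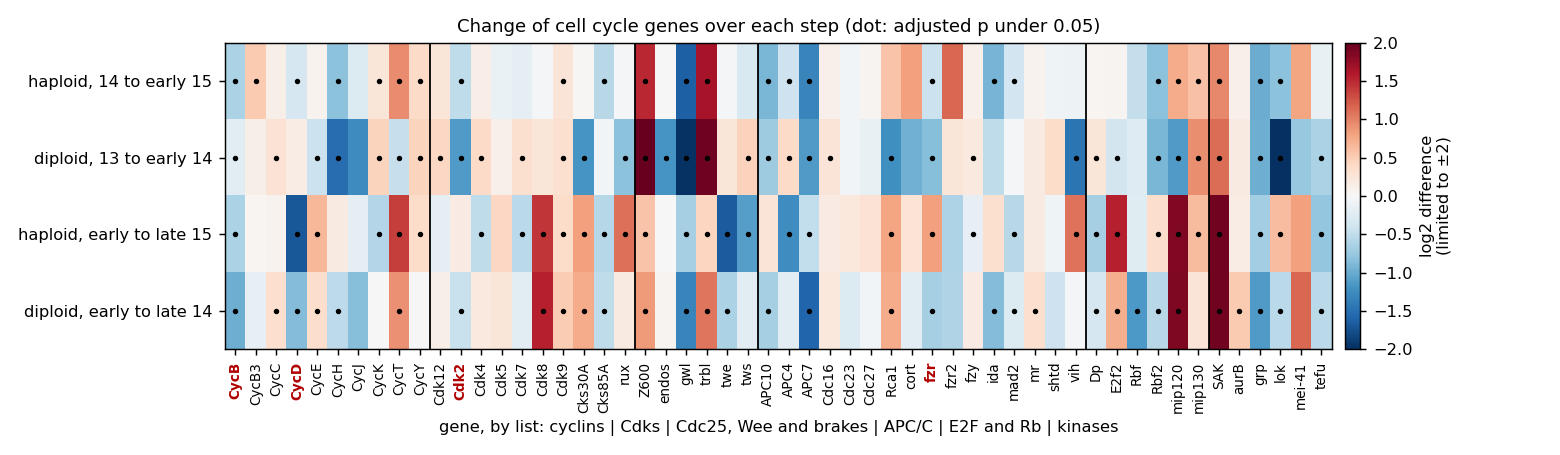
Log2 difference over each step (colour, limited to ±2, the haploid band of each step above the diploid one) for the 4 genes (red labels) and 50 further cell cycle genes, ordered by list, with a dot where the adjusted p was under 0.05. Z600 and trbl are red and gwl blue in both first steps, and fzr is red in the haploid and blue in the diploid second step.

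Likeness of pattern was measured as Pearson's r of log2 levels over the 18 arrays, against 7087 probe sets of other single genes above background in at least 1 group. The arrays share stages and ploidy, so high values are common, and 527 of these probe sets had an r above 0.9 with CycB, 344 with CycD, 216 with Cdk2 and 41 with fzr. Closest to CycB were msk, a nuclear import receptor (r = 0.990), Lsd-2, a lipid droplet protein (0.986), and Pi4KIIalpha, a lipid kinase (0.985). The measure r takes no account of the size of a change. From diploid cycle 13 to haploid late cycle 15 the mean of Lsd-2 went from 6236 to 69.7, and that of CycB from 11321 to 3540. Closest to CycD were CG40006 (0.992), Tbc1d15-17 (0.989) and pim, the fly securin (0.989). The securin gene pim had 4014 ± 190, 3682 ± 195 and 1150 ± 114 units in the 3 haploid stages and 3633 ± 49.8, 4014 ± 118 and 2348 ± 206 in the 3 diploid stages. Closest to Cdk2 were Cse1, an exporter of importin alpha (0.980), the cap-binding eIF4E1 (0.977) and CG18870 (0.977). Closest to fzr were the general transcription factor gene TfIIEalpha (0.967), the Hedgehog co-receptor gene boi (0.962) and the calnexin gene Cnx99A (0.958). TfIIEalpha had 352 ± 19.2, 286 ± 42.0 and 378 ± 54.4 units in the haploid and 789 ± 20.9, 488 ± 46.1 and 409 ± 13.3 in the diploid stages. Among the 4 genes themselves, r was highest for CycB with CycD (0.826) and lowest for CycD with fzr (0.120).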

How the data were processed

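Total RNA of 18 pools of embryos was labelled with biotin and hybridised to Affymetrix arrays. The deposited table holds linear intensity values for 18952 probe sets, made by the authors with MAS5 per the submitters' processing notes, whose version and scaling target were not given in the sources used here. Values under 0.1 were set to 0.1 (1 value), and arrays were quantile normalised and log2 transformed. Of 18769 probe sets other than controls, 14560 were tested, each reaching the 40th percentile (an intensity of 12.0) on 3 arrays or more. With limma 3.58.1 (R 4.3.3), 1 linear model with a mean per group, moderated with an intensity trend, gave 11 contrasts, with Benjamini-Hochberg adjustment over all 14560 probe sets within a contrast, and was tested on simulated data. Intervals of 95% are unadjusted, and the number of arrays limits the precision.

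The 4 genes and the lists were chosen with earlier results of these data known. Of the cell cycle list, the cyclins, Cdk4, fzy, cort, Rca1 and genes called at 2-fold or more were to be named, and each gene was read from its brightest probe set. Not every change of that size is given here. Alternatives were 4 other scalings, a pseudocount of 16, other filters on low values, no trend, only the groups compared, a replicate block and leaving out each array. Poly-A centring that leaves out the Trp spikes was chosen after seeing the data. Replicate numbers did not pair the arrays: deviations from group means correlated at -0.02 to 0.03 over 45 pairs of arrays of one number in different groups.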

Additional observations from a re-analysis of the deposited data

Results flagged for a closer look

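Each of the following stands out because the haploid and the diploid step differed by a test of the difference itself, given here as the haploid minus the diploid log2 difference. For fzr the second step differed by 1.49, with a rise in haploids and a fall in diploids. For CycD the first step differed by -0.48, with a fall in haploids and no called change in diploids (0.15). The second step of CycD differed by -0.82, the haploid fall being the steeper. For Cdk2 they differed by 0.63 and 0.60, with a steeper fall in diploids in the first step, and a fall in diploids but no called change in haploids in the second. For CycB they differed by -0.40 and 0.34, the haploid fall being the steeper in the first step and the diploid fall in the second. Of these, those of fzr and CycD in the second step kept direction and call under all 4 other scalings, and the others did not.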

How the results depend on the processing

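Values are log2 differences, and a call means an adjusted p under 0.05 in limma. Over 44 differences (4 genes in 11 comparisons), direction and call were kept in 44 with a replicate block, with the pseudocount and with either filter, in 41 with only the groups compared, in 38 without the trend, in 34 with median or RP centring, in 27 on the deposited scale and in 25 with poly-A centring. The cause of the changes was not tested. On the deposited scale the sign turned for CycB in diploid early cycle 14 against cycle 13 (0.045), CycD (-0.10) in haploid cycle 14 against diploid cycle 13, Cdk2 (-0.18) in haploid late cycle 15 against diploid late cycle 14, and CycD (-0.50) and Cdk2 (-0.81) in haploid cycle 14 against diploid early cycle 14. Of these turned signs, those of CycD and Cdk2 in haploid cycle 14 against diploid early cycle 14 were called. Calls were lost there for fzr in the diploid first step (-0.50), for CycB (-0.26), CycD (-0.0029), Cdk2 (-0.41) and fzr (-0.36) in the haploid first step, for the first-step difference of CycB (-0.31), CycD (-0.40) and Cdk2 (0.40) and for the second-step difference of CycB (0.46), and gained for CycD in the diploid first step (0.40), CycD in haploid early cycle 15 against diploid early cycle 14 (-0.50) and fzr in haploid late cycle 15 against diploid late cycle 14 (-0.68).

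With median centring the sign turned for Cdk2 in haploid late cycle 15 against diploid late cycle 14 (-0.0060) and haploid cycle 14 against diploid early cycle 14 (-0.12), and for the first-step difference of fzr (-0.090). Calls were lost for CycB in the diploid first step (-0.21), CycB (-0.27) and CycD (0.33) in haploid cycle 14 against diploid cycle 13, CycB in haploid cycle 14 against diploid early cycle 14 (-0.055), the first-step difference of Cdk2 (0.17) and the second-step difference of CycB (0.43), and gained for fzr in haploid late cycle 15 against diploid late cycle 14 (-0.50). With RP centring the sign turned for Cdk2 in haploid late cycle 15 against diploid late cycle 14 (-0.045), and for CycD (-0.028) and Cdk2 (-0.33) in haploid cycle 14 against diploid early cycle 14. Calls were lost for CycB in the diploid first step (-0.20), CycD in the haploid first step (-0.32), CycD in haploid cycle 14 against diploid cycle 13 (0.12) and the first-step difference of CycB (-0.38), CycD (-0.47) and Cdk2 (0.33), and gained for CycD in haploid early cycle 15 against diploid early cycle 14 (-0.35).

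With poly-A centring, and without the Trp probe sets as the second value, the sign turned for CycD in the haploid first step (0.20 and 0.20), Cdk2 in the haploid second step (-0.57 and -0.58), CycD in haploid cycle 14 against diploid cycle 13 (-0.22 and -0.22), Cdk2 in haploid late cycle 15 against diploid late cycle 14 (-0.28 and -0.29), CycD (-0.44 and -0.43) and Cdk2 (-0.74 and -0.74) in haploid cycle 14 against diploid early cycle 14, Cdk2 in haploid early cycle 15 against diploid late cycle 14 (0.29 and 0.29) and the first-step difference of CycB (0.081 and 0.084). Calls were lost for CycB in the diploid first step (-0.14 and -0.14), for CycB (-0.058 and -0.053), Cdk2 (-0.21 and -0.20) and fzr (-0.16 and -0.16) in the haploid first step, fzr in the haploid second step (0.21 and 0.20), the first-step difference of CycD (-0.014 and -0.011) and Cdk2 (0.79 and 0.79), and the second-step difference of CycB (0.086 and 0.073) and Cdk2 (0.67 and 0.66). They were gained for fzr in haploid late cycle 15 against diploid late cycle 14 (-0.78 and -0.78) and CycB in haploid early cycle 15 against diploid late cycle 14 (0.58 and 0.58). Of the turned signs, those of Cdk2 in the haploid second step and in haploid cycle 14 against diploid early cycle 14 were called.

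Without the trend, calls were lost at unchanged values for CycB in the diploid first step (-0.22), fzr in the haploid first step (-0.43), CycB in haploid cycle 14 against diploid early cycle 14 (-0.20), and the step differences of CycB (-0.40 and 0.34) and CycD (-0.48, first step). With only the groups compared, they were lost for fzr in the haploid first step (-0.43) and CycB in haploid cycle 14 against diploid early cycle 14 (-0.20), and gained for fzr in haploid late cycle 15 against diploid late cycle 14 (-0.33). Over arrays left out in turn, fzr in the haploid first step ran from -0.54 to -0.27, CycB in haploid cycle 14 against diploid early cycle 14 from -0.24 to -0.17, CycD in haploid early cycle 15 against diploid early cycle 14 from -0.24 to -0.12, CycB in haploid early cycle 15 against diploid late cycle 14 from 0.10 to 0.21, the first-step difference of fzr from 0.25 to 0.58, and Cdk2 in haploid cycle 14 against diploid early cycle 14 from -0.035 to 0.14. The other 38 differences kept direction and call with any array left out. The replicate numbers paired no arrays (7 of 18 arrays correlated best with their own number), and the replicate block changed no call. For example, fzr in haploid cycle 14 against diploid cycle 13 was -2.23 with the block.

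The count of called probe sets moved by over 1.5 times in the diploid first step (3977, and 2602 with median, 2588 with RP and 1825 with poly-A centring, 1844 without Trp), in the haploid first step (2954, and 4487 with poly-A centring without Trp), in haploid cycle 14 against diploid early cycle 14 (2987, and 6914 on the deposited scale and 5218 or 5242 with poly-A centring), in haploid early cycle 15 against diploid early cycle 14 (3838, and 2168 or 2169), in haploid late cycle 15 against diploid late cycle 14 (3058, and 1940 or 1980), and in the first-step (1304, and 750 on the deposited scale) and second-step differences (2109, and 708 or 734 with poly-A centring).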
